A study of Mus musculus with 14 samples.

Results

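Axon guidance ligands and receptors were examined in cultured primary microglia from TIMP2 KO and WT mice. Members were the protein-coding genes of the ROBO, SLIT, semaphorin, plexin, neuropilin, Eph, ephrin, netrin and UNC5 families, together with Dcc, that had at least 10 counts summed over the 14 libraries, which gave 67 of the 49315 genes in the count table. The ligands were 33 of these genes (3 SLITs, 20 semaphorins, 8 ephrins and 2 netrins) and the receptors 34 (4 ROBOs, 9 plexins, 2 neuropilins, 14 Eph receptors, and 5 from the UNC5 family and Dcc). The member with the fewest counts was Epha6, with 31 in all. Below the minimum was Ntn5, with 6.

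Poly(A) RNA was sequenced from 7 KO and 7 WT cultures of C57BL/6 pups, aged P6 to P7, with 5 pups of both sexes pooled per sample. The KO mice carry a global deletion of TIMP2, a secreted inhibitor of metalloproteinases, so the cultures do not separate loss in microglia from loss elsewhere. Forebrain cells were selected with CD11b microbeads, which bind microglia and other myeloid cells, and were then kept in culture without other labelled treatment. The libraries held between 38875344 and 48070236 counts. Timp2, which checks the labels, was at 464 ± 36.8 CPM (counts scaled to library size as CPM, SD, n = 7) in WT and at 123 ± 3.14 CPM (SD, n = 7) in KO, so reads on the gene remained in KO but the groups did not overlap. Over all 15700 genes tested, 3 were called between the genotypes, Timp2 among them (edgeR quasi-likelihood test, Benjamini-Hochberg adjusted p under 0.05).

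The cultures carried the markers of microglia. The summed level of 12 microglial markers was between 9626 and 11830 CPM in KO and between 9239 and 11280 CPM in WT. Markers of other brain cells were much lower but varied. The 12 astrocyte markers summed to between 33.8 and 173 CPM in KO, with a median of 58.6, and to between 39.3 and 319 CPM in WT, with a median of 112. This was a range of 9.43-fold over the libraries, and the highest levels were in WT 4 and WT 3. All 11 of the astrocyte markers that passed the filter were lower in KO by sign, 0 of them were called, and the summed level did not differ beyond its spread (two-sided exact permutation test, p = 0.258). The 14 neuron markers ranged from 41.4 to 80.1 CPM, the 11 oligodendrocyte lineage markers from 146 to 208 CPM, and the 12 vascular and fibroblast markers from 33.6 to 62.0 CPM. By sign, 12 of 14 tested neuron markers, 7 of 9 oligodendrocyte lineage markers and 6 of 9 vascular and fibroblast markers were lower in KO, with median log2 differences of -0.30, -0.33 and -0.25, while 11 of the 12 microglial markers were higher, with a median of 0.055. Of the border macrophage markers 4 of 5 tested were higher, with a median of 0.13, and of the markers of other leukocytes both tested, S100a8 and S100a9, with a median of 0.97. Of these markers 0 were called. None of the listed markers was at 0 in all libraries. In bulk RNA, a smaller number of cells of a type and less RNA per cell cannot be told apart.

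Guidance genes encode signals that steer growing axons and migrating cells, and receptors that read them. SLITs are secreted ligands of ROBO receptors, netrins act through DCC and UNC5 receptors, semaphorins act through plexins, with neuropilins as co-receptors for most secreted class 3 semaphorins, and ephrins are membrane-bound partners of Eph receptor kinases. Plexins, neuropilins and class 4 semaphorins are also known in macrophages and lymphocytes, while many of the secreted ligands are known from neurons and astrocytes.

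Guidance transcripts were concentrated in a few members. Levels between genes were compared in RPKM (CPM divided by exon length in kilobases), averaged over the 14 libraries. Plxnb2, a plexin that binds class 4 semaphorins, was highest at 162 RPKM. It was followed by Nrp1, at 64.4 RPKM, and Nrp2, at 37.0 RPKM, with Sema4d between them at 49.2 RPKM. Plxnc1, the receptor of Sema7a, was at 22.8 RPKM and Sema4c at 16.5 RPKM. The 5 members with the most counts (Plxnb2, Nrp1, Nrp2, Sema4d and Plxnc1) took 87.0% of all counts on members. Receptors took 82.8% and ligands 17.2% of these counts.

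Of the 67 members, 17 had a mean level of 1 RPKM or more, and these took 97.0% of the member counts. They comprised 7 semaphorins (Sema4d, Sema4c, Sema6b, Sema7a, Sema4g, Sema4b and Sema6d), 6 plexins, both neuropilins, Efnb1 and Unc5b. No SLIT, ROBO, netrin or Eph receptor reached 1 RPKM. The highest member of each of these families was Slit1 (0.979 RPKM), Robo2 (0.189 RPKM), Ntn1 (0.779 RPKM) and Epha2 (0.578 RPKM). Efnb1, a transmembrane ligand of EphB receptors, was the highest ephrin at 2.5 RPKM, and Unc5b, a netrin receptor, was the highest of its family at 1.32 RPKM. Counts of Epha1, Unc5a and Efna4 may include reads of a neighbour. Exons of Epha1 and Unc5a overlap those of the far more abundant Zyx and Hk3. Efna4, with 488 counts, shares 10.5% of its exon bases with the antisense gene 4731419I09Rik, with 2457 counts. Whether the counting used the strand is not given in the sources used here.

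The abundant members were also the steady ones. Among the 17 members at 1 RPKM or more, the coefficient of variation of CPM within a genotype had a median of 11.7% and ran from 3.85% for Nrp2 to 22.6% for Unc5b. Among the 44 tested members under 1 RPKM it had a median of 42.5% and ran from 11.0% for Sema6c, a transmembrane semaphorin, to 83.6% for Sema5b. The SE of the log2 difference between genotypes had a median of 0.084 in the first set and 0.32 in the second.

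**Figure D1:**
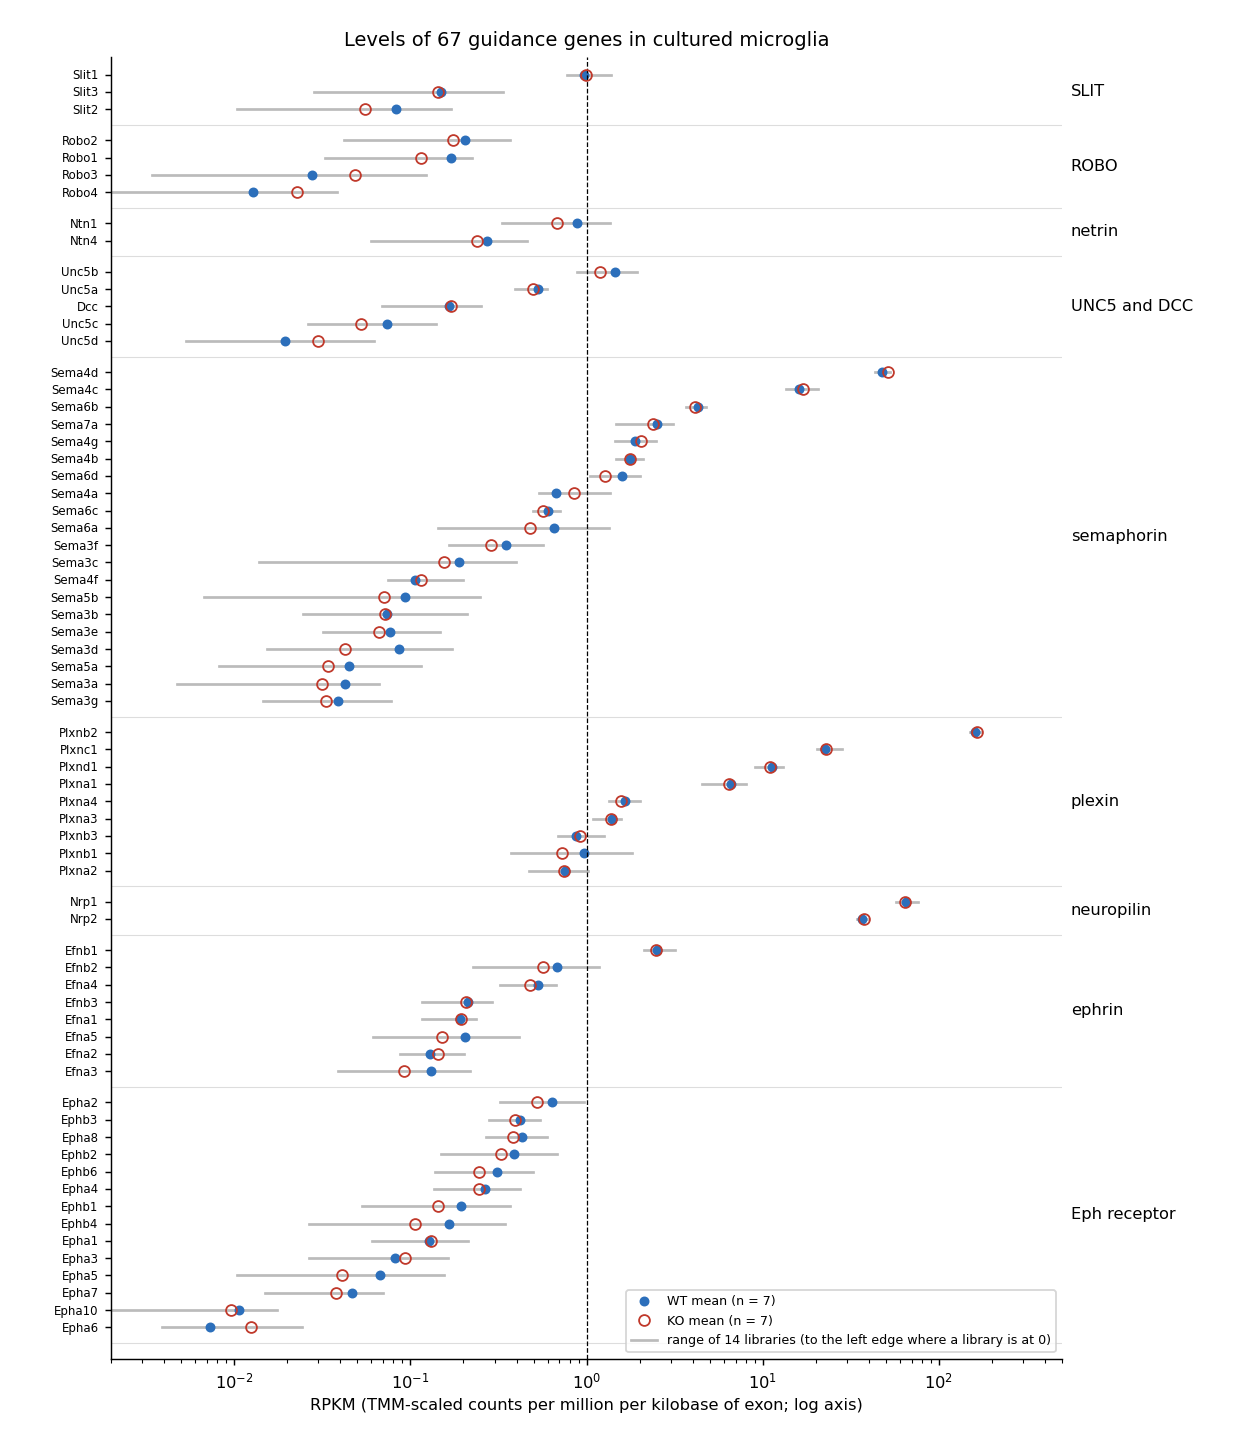
Mean RPKM (log axis) of each of the 67 members, by family, in WT (filled blue points, n = 7) and KO (open red circles, n = 7), with the range of the 14 libraries as a grey line and 1 RPKM as a dashed line. Plxnb2 lies at 162 RPKM and 17 members lie at 1 RPKM or more, with narrow ranges for the abundant members and wide ranges for most members under 1 RPKM.

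Plxnb1 and Plxnb2 are close relatives in 1 receptor class that behaved differently here. Plxnb2 was abundant and steady, and Plxnb1, the receptor best known for binding Sema4d, was at 0.847 RPKM and varied 4.83-fold over the libraries. The 200 bases ahead of each annotated gene start are shown for this pair (RefSeq promoter windows, GRCm38.p6), at chr9:109095189-109095388 on the plus strand for Plxnb1 and chr15:89180789-89180988 on the minus strand for Plxnb2. Capitals mark the GC box GGGCGG, or its reverse complement CCGCCC, on either strand.
Plxnb1: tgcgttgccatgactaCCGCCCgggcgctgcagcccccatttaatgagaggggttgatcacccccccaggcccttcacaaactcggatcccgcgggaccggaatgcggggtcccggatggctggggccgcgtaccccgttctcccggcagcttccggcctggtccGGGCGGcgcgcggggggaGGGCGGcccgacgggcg
Plxnb2: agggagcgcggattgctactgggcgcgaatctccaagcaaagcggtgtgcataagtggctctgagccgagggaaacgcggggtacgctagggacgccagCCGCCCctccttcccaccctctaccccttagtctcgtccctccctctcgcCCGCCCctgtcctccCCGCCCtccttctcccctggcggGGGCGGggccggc
Both stretches were rich in G and C (73.0% for Plxnb1 and 69.5% for Plxnb2) and held GC boxes, 3 for Plxnb1 and 4 for Plxnb2. Of the 73 windows of this length that were matched to 57 members, 71.2% held a GC box, against 31.0% of all 32851 windows. GAGGAA, the core that ETS factors of myeloid cells can bind, was searched on both strands and was in neither stretch. It was in 24.7% of the member windows and in 19.0% of all windows. The Plxnb1 stretch also holds exon sequence of the antisense gene Gm7628, which had 27 counts over all libraries.

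The comparison of KO with WT asked whether loss of TIMP2 changed the guidance genes. No member was called. Of the 67 members, 61 passed the filter on low counts, and 0 of these had an adjusted p under 0.05, against 0.0191% of all genes tested (edgeR, lowest adjusted p of a member 0.943). At an unadjusted p under 0.05 there were 3 members, against 3.37% of all genes tested, and DESeq2 also called 0 members, with 4 at an unadjusted p under 0.05. In no tested member were the CPM of the genotypes free of overlap, which was so for 0.0828% of all genes tested. The untested members were Epha6, Epha10, Robo3, Robo4, Sema3g and Unc5d, with a mean of between 2.21 and 11.1 counts per library.

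By sign alone, 45 of the 61 tested members were lower in KO and 16 higher, against 49.2% of all tested genes lower. The median log2 difference, KO minus WT, was -0.11 over the members and 0.0016 over all tested genes. Leaving out single libraries moved the median of the members from -0.20 without KO 1 to -0.049 without WT 4. Under 1 RPKM, 35 of 44 tested members were lower (79.5%, against 61.1% of all tested genes under 1 RPKM). At 1 RPKM or more, 10 of 17 were lower (58.8%, against 43.6%). Without WT 3 and WT 4 these counts were 20 of 44 and 6 of 17, and with the astrocyte marker level in the model 16 of 44 and 6 of 17. The count of lower members was between 45 and 46 with other scaling factors and between 39 and 48 when each library was left out in turn. With those other factors between 50.7% and 57.0% of all tested genes were lower. When WT 3 and WT 4 were left out together, 26 of 61 members were lower, with a median of 0.012. This alternative was chosen after seeing the data. These WT libraries had the highest astrocyte marker levels. Leaving them out therefore moves up, by construction, the differences of members that rise with that level.

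Robo1, a SLIT receptor, had a low level, at 0.143 RPKM. In WT it ranged from 1.56 to 3.72 CPM with a median of 2.65, and in KO from 0.543 to 2.43 CPM with a median of 2.20. Each of the 7 KO libraries was below the WT median and 5 WT libraries were above the highest KO library, but the groups overlapped. The log2 difference was -0.56 ± 0.28 (SE), which did not pass the test (edgeR adjusted p = 0.943, two-sided exact permutation test, p = 0.0717, n = 7 per genotype). The KO 5 library stood apart from the other KO libraries, and without it the difference was -0.39. Robo2 was at 3.46 ± 1.78 CPM in WT and 2.95 ± 1.47 CPM in KO (SD, n = 7). Its log2 difference of -0.23 was -0.033 without WT 4, -0.062 without KO 5 and 0.20 without WT 3 and WT 4.

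The SLIT and netrin ligands among the members lay under 1 RPKM, as did the receptors of the ROBO, UNC5 and DCC groups except Unc5b. Slit1, a secreted ROBO ligand, was at 5.73 ± 0.557 CPM in WT and 5.87 ± 1.22 CPM in KO (SD, n = 7), a log2 difference of 0.034 ± 0.12 (SE). Slit2 was lower, at 2.11 ± 1.61 CPM in WT and 1.41 ± 1.15 CPM in KO, with a spread nearly as large as the mean, and its log2 difference of -0.58 was -0.31 without WT 4 and -0.0080 without WT 3 and WT 4. Ntn1, which attracts or repels axons through DCC and UNC5 receptors, was at 5.52 ± 1.95 CPM in WT and 4.26 ± 1.64 CPM in KO, a log2 difference of -0.37 that was -0.24 without WT 4 and -0.11 without WT 3 and WT 4. Among the netrin receptors, Unc5b ranged from 6.02 to 12.1 CPM in WT with a median of 8.77, and from 5.53 to 9.54 CPM in KO with a median of 7.22. Its log2 difference of -0.29 ± 0.16 (SE) did not pass the test (edgeR unadjusted p = 0.0946, adjusted p = 0.943). Unc5c was at 1.42 ± 0.719 CPM in WT and 1.01 ± 0.478 CPM in KO, a log2 difference of -0.49 ± 0.35 (SE) that was -0.26 without WT 4. Without WT 3 and WT 4 the difference was -0.13 for Unc5c and -0.12 for Unc5b. The ranges of WT and KO overlapped for each of these genes.

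The signs of the semaphorin differences are given here by class, and a difference between classes was not tested. All 6 class 3 semaphorins tested, which are secreted, both class 5 and all 4 class 6 semaphorins were lower in KO by sign, while all 6 class 4 semaphorins were higher. Of these 18 genes, 0 were called. The higher sign of Sema4b turned with upper-quartile factors, and up to 2 class 4 semaphorins were lower when 1 library was left out. Both class 5 semaphorins were higher in KO by sign without WT 4. Without WT 3 and WT 4, 2 of the 6 class 3, 0 of the 2 class 5 and 3 of the 4 class 6 semaphorins were lower, and all 6 class 4 semaphorins were still higher. With the astrocyte marker level in the model the counts were 2 of 6, 0 of 2 and 3 of 4 lower, and all 6 of class 4 higher. WT 3 and WT 4 had the highest astrocyte levels, so these alternatives are not independent and nothing is read from their match. The part of that level in the class signs was not tested. Of the class 3 semaphorins 5 rose with that level, of class 5 both, of class 6 2 and of class 4 0, against 10.9% of all genes tested. The share was 23.0% of genes under 1 RPKM, where all of class 3 and class 5 lay, and 5.2% of genes at 1 RPKM or more, where 4 of the 6 class 4 and 2 of the 4 class 6 semaphorins lay.

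Sema6d, a transmembrane semaphorin that acts with Plxna1, had the smallest p among the members. It ranged from 13.4 to 21.2 CPM in WT with a median of 15.7, and from 11.1 to 14.4 CPM in KO with a median of 14.0. In KO each library was below the WT median and 6 WT libraries were above all KO libraries, so that only WT 1 lay within the KO range. The log2 difference was -0.31 ± 0.092 (SE), with an unadjusted p of 0.00403 (edgeR) and an exact two-sided permutation p of 0.00466, and it did not pass the test over all genes (adjusted p = 0.943). It was between -0.36 and -0.25 when each library was left out, and -0.20 without WT 3 and WT 4.

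Sema4d, the abundant ligand of Plxnb1 and Plxnb2, was slightly higher in KO. It ranged from 333 to 388 CPM in WT with a median of 365, and from 355 to 407 CPM in KO with a median of 400.3. Of the KO libraries, 5 were above all WT libraries. The log2 difference was 0.11 ± 0.038 (SE), with an unadjusted p of 0.0103 (edgeR, adjusted p = 0.943). Sema4a, which is known to act on lymphocytes, ranged from 3.09 to 4.58 CPM in WT and from 2.88 to 7.34 CPM in KO, with medians of 3.33 and 4.44. The highest Sema4a value was that of KO 3, and the log2 difference of 0.35 ± 0.16 (SE) was 0.20 without that library (edgeR unadjusted p = 0.0475 with it, adjusted p = 0.943). These 3 semaphorins, with Sema4c, Sema4g and Sema3d, are named because their unadjusted p was among the 6 smallest in 1 direction, so these values describe a choice. KO 3 also had the highest summed level of 7 markers of other leukocytes, at 16.5 CPM. The lowest KO library was at 1.84 CPM, and WT lay between 0.307 and 10.9 CPM. WT 2 was the highest WT library in that level and for Sema4a. KO 7 was at 12.2 CPM in that level and at 4.01 CPM for Sema4a. Of these markers only S100a8 and S100a9 passed the filter, both markers of neutrophils and other myeloid cells. The defining markers Cd3e, Ly6g and Ncr1 had 9, 6 and 1 counts in all libraries together. The part of this level in the Sema4a values was not tested. The 6 border macrophage markers summed to between 498 and 815 CPM in KO, highest in KO 3, and to between 446 and 875 CPM in WT.

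The other semaphorins so chosen overlapped between the genotypes as well. Sema4c was at 73.5 ± 8.29 CPM in WT and 77.8 ± 11.0 CPM in KO (SD, n = 7). Sema4g was at 16.4 ± 2.34 CPM in WT and 17.7 ± 2.98 CPM in KO (SD, n = 7). The log2 differences of 0.083 for Sema4c and 0.11 for Sema4g were 0.028 and 0.058 without KO 5. Sema3d, a secreted ligand, had the largest difference of the 61 members, a log2 difference of -0.997 ± 0.484 (SE), on a low level of 0.736 ± 0.509 CPM in WT and 0.368 ± 0.223 CPM in KO. The difference of Sema3d was -0.34 without WT 3 and WT 4. These were its highest libraries, so the choice itself fixes that the difference moves up, and nothing is read from it. With them the difference did not pass the test (edgeR adjusted p = 0.943).

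**Figure D2:**
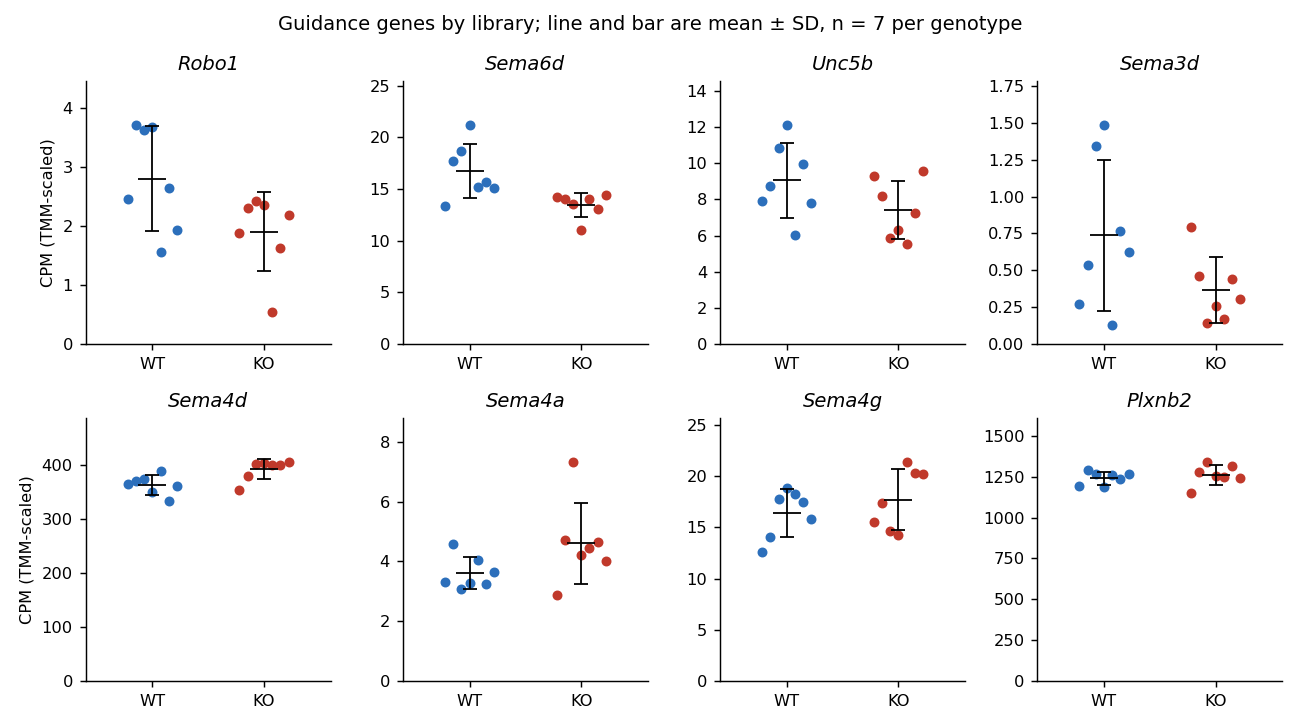
CPM of 8 members in each WT (blue) and KO (red) library, with the mean and SD as a line and bars (n = 7 per genotype) and each axis starting at 0. The groups overlap in each panel, with 6 WT libraries above all KO libraries for Sema6d and 5 KO libraries above all WT libraries for Sema4d.

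The plexins and neuropilins, which made up most guidance transcripts, differed little. Plxnb2 was at 1243 ± 39.9 CPM in WT and 1263 ± 60.7 CPM in KO (SD, n = 7), with a log2 difference of 0.023 ± 0.034 (SE). Nrp2, a co-receptor for class 3 semaphorins, was at 434 ± 15.5 CPM in WT and 442 ± 18.2 CPM in KO, a log2 difference of 0.024 ± 0.031 (SE). Nrp1, which also binds VEGF, was at 633 ± 61.2 CPM in WT and 627 ± 72.0 CPM in KO, a log2 difference of -0.014 ± 0.074 (SE). For these abundant receptors the SE bounds the difference closely, whereas for Plxnb1 it was 0.33 around a log2 difference of -0.41, which was -0.19 without WT 4 and -0.00103 without WT 3 and WT 4. Of the 9 plexins, 6 were lower by sign, against 49.2% of all tested genes, and 0 were called. The count was 3 of 9 without WT 3 and WT 4 and 3 of 9 with the astrocyte level in the model. These alternatives are not independent.

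By sign, 10 of 12 tested Eph receptors and 6 of 8 ephrins were lower in KO, against 49.2% of all tested genes and 61.1% of those under 1 RPKM, and 0 of either were called. Without WT 3 and WT 4 these counts were 7 of 12 and 4 of 8, and with the astrocyte marker level in the model 4 of 12 and 3 of 8. The highest Eph receptor, Epha2, was at 2.98 ± 1.11 CPM in WT and 2.43 ± 0.731 CPM in KO (SD, n = 7). Its log2 difference of -0.29 was -0.17 without WT 4 and -0.032 without WT 3 and WT 4. Efnb1 was at 8.72 ± 1.31 CPM in WT and 8.53 ± 0.555 CPM in KO. Efna3, a ligand anchored in the membrane by a lipid, was at 0.317 ± 0.123 CPM in WT and 0.224 ± 0.108 CPM in KO, with a mean of 11.8 counts per library. Its log2 difference of -0.49 ± 0.33 (SE) was -0.25 without WT 3 and WT 4 and -0.24 with the astrocyte marker level in the model.

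Many members varied with the astrocyte markers from library to library. The levels of marker genes of 4 other cell types were each put into the model as a number per library, next to genotype, and a gene that passed was said to rise with that level. With the astrocyte marker level, 29 of the 61 tested members rose, against 10.9% of all genes tested, and 0 fell, against 7.09%. The slope is the log2 change per 1 SD of the level, and its median was 0.30 over the members and -0.0085 over all tested genes. Fitted in the KO libraries alone, 12 members and 545 of all genes passed with this level, and in the WT libraries alone 27 members and 1487 genes, fits that were added after seeing the data. None of the marker genes is a member.

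The members that rose were mostly rare ones. Under 1 RPKM, 25 of 44 tested members rose (56.8%, against 23.0% of tested genes under 1 RPKM). At 1 RPKM or more, 4 of 17 rose (23.5%, against 5.20%), namely Plxnd1, Efnb1, Sema6d and Unc5b. The 29 genes together held 4.97% of the member counts. By family they were 8 of 12 Eph receptors, including all 5 EphB receptors, 9 of 19 semaphorins, 3 of 8 ephrins, 2 of 3 SLITs, both netrins, 2 of 9 plexins, 2 of the 4 tested genes of the UNC5 and DCC group, and 1 of 2 ROBOs. No neuropilin and no class 4 semaphorin rose.

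Sema6a, a transmembrane semaphorin, had the smallest p, with a slope of 0.91 ± 0.067 (SE, adjusted p = 2.08e-07, edgeR). It ranged from 1.43 CPM in WT 5 to 11.8 CPM in WT 4, and from 1.26 CPM in KO 5 to 6.79 CPM in KO 7, which follow the order of the astrocyte level at its ends. Plxnb1 ranged from 3.67 to 17.3 CPM in WT and from 3.58 to 11.4 CPM in KO, with a slope of 0.67 ± 0.056 (SE, adjusted p = 6.66e-07). Plxnb2, by contrast, had a slope of -0.018 ± 0.018 (SE, adjusted p = 0.544). Efnb2 and Ephb2, a ligand and receptor pair that signals in both directions between touching cells, had slopes of 0.72 ± 0.060 (SE, adjusted p = 6.70e-07) and 0.63 ± 0.053 (SE, adjusted p = 8.05e-07). Unc5b had a slope of 0.32 ± 0.030 (SE, adjusted p = 2.29e-06). Robo1 had a slope of 0.35 ± 0.13 (SE) and was not called (adjusted p = 0.0739).

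**Figure D3:**
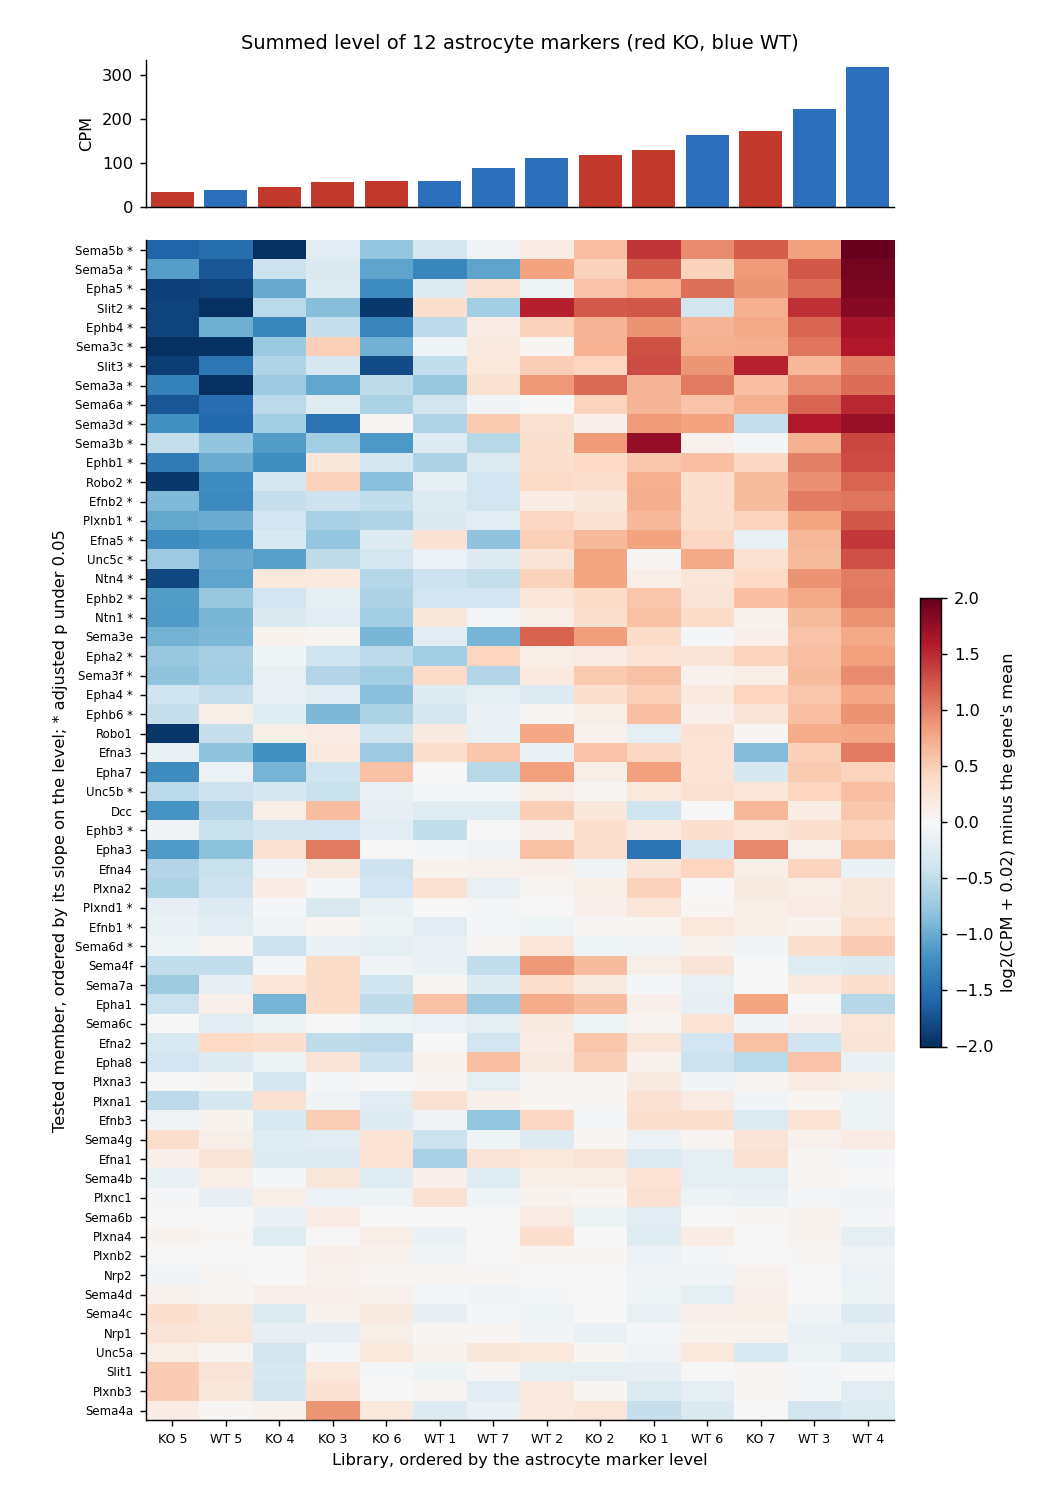
Bars show the summed CPM of the 12 astrocyte markers in each library (red KO, blue WT), ordered from 33.8 CPM in KO 5 to 319 CPM in WT 4. The map below shows, for the 61 tested members ordered by slope, the log2 level in each library minus the gene's mean, on a scale cut at 2 in both directions, and a star marks the 29 members that rose with the astrocyte level.

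The levels of neuron and oligodendrocyte lineage markers gave overlapping sets. With the neuron level 20 members rose, against 5.83% of all genes tested, and with the oligodendrocyte lineage level 19 rose, against 6.20%. Of these, 17 of the 20 and 19 of the 19 had also risen with the astrocyte level. Epha7, Sema3e and Sema4f passed with the neuron level but not with the astrocyte level. Their astrocyte slopes were 0.33 ± 0.16, 0.49 ± 0.17 and 0.13 ± 0.14 (SE). A difference between the slopes of the 2 levels was not tested. With the vascular and fibroblast level 0 members were called, against 0.166% of all genes that rose. Flt1 was the largest part of that sum, at a mean of 30.3 CPM in KO and 24.5 CPM in WT, so the count says little of the other markers. With the mean log2 CPM of the markers as that level 3 members and 149 genes were called. With the replicate number also in the model (replicate block) 27 members and 2465 genes were called. Whether same-numbered libraries shared a batch is not given in the sources used here. The neuron count rested on single libraries, since it was 3 without KO 5 or without WT 5, 6 without KO 1, 7 without WT 4, 8 without KO 2 and 13 without WT 7. It was 0 when the level was the mean log2 CPM of the markers instead of their sum. The oligodendrocyte lineage count was 8 without WT 4 and 31 with the mean log2 CPM as the level. Mbp and Cnp held most of the oligodendrocyte lineage sum, at means of 61.04 and 72.25 CPM in KO and 64.15 and 70.85 CPM in WT. The astrocyte count was between 28 and 34 whichever library was left out.

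Sema3e, a secreted ligand of Plxnd1, had the smallest p with the neuron level, with a slope of 0.65 ± 0.12 (SE, adjusted p = 0.00797). Efna5 had a slope of 0.73 ± 0.14 (SE, adjusted p = 0.00901) and Slit2, which guides axons across the midline, of 1.11 ± 0.23 (SE, adjusted p = 0.0159). The slopes of Ephb1 and Epha7, both ephrin receptors, were 0.71 ± 0.15 (adjusted p = 0.0160) and 0.54 ± 0.12 (adjusted p = 0.0206). With the oligodendrocyte lineage level, Ephb3 (0.32 ± 0.049, adjusted p = 0.00220) and Sema6d (0.17 ± 0.027, adjusted p = 0.00290) had the smallest p. They were followed by Unc5c, Ephb1 and Ephb4 with slopes of 0.61, 0.72 and 0.91.

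With the astrocyte level in the model next to genotype, 22 of the 61 members were lower in KO and 39 higher, against 49.2% of all tested genes lower in the same fit, and the median log2 difference of the members was 0.032. Without the level it had been -0.11. Among the 29 members that rose with the level, all 29 were lower in KO without the level in the model and 8 with it. Among the other 32, 16 and 14 were lower. The 29 were chosen for a positive slope in the fit that also holds genotype, and the level was lower in KO, so the choice itself fixes that their differences move up when the level is added, and nothing is read from this contrast. No member was called in either fit. With the level, the log2 difference of Robo1 was -0.32 (unadjusted p = 0.202), of Sema6d -0.22 (unadjusted p = 0.00740), of Sema3d -0.27, of Sema4d 0.089 and of Sema4a 0.27, each with an adjusted p of 1 in edgeR. The level itself is measured in the same libraries and was lower by sign in KO, so the part of each in the differences cannot be told apart.

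**Figure D4:**
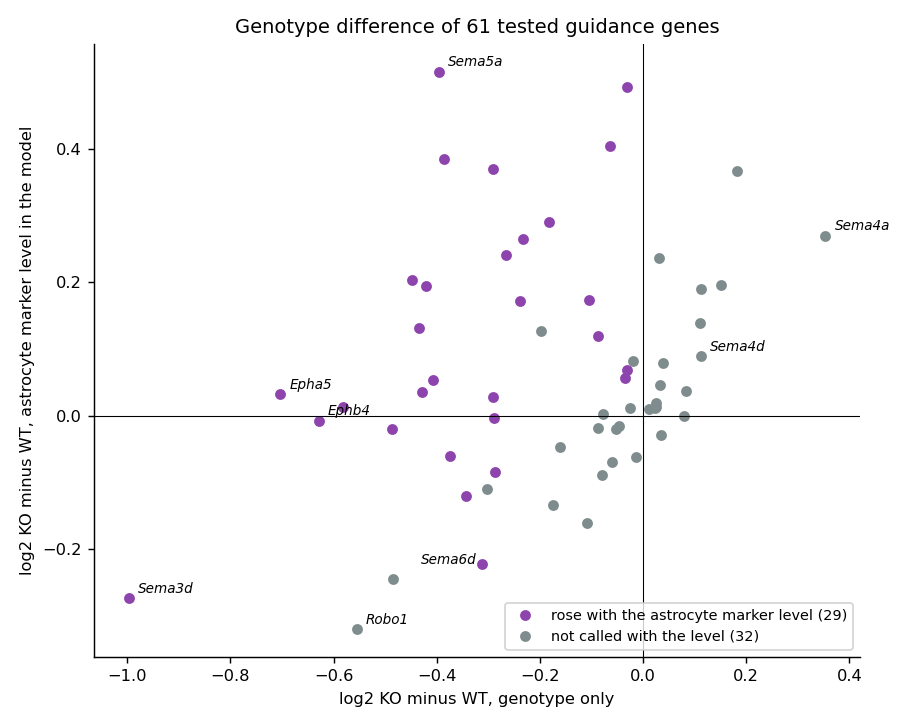
Log2 difference, KO minus WT, of the 61 tested members from the fit with genotype only (horizontal axis) and from the fit that also holds the astrocyte marker level (vertical axis). The 29 members that rose with the level (purple) all lie left of 0, and 21 of them lie above 0 on the vertical axis, while the other 32 members (grey) lie on both sides, and the upward move of the 29 is fixed by how they were chosen.

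The genes that carry guidance signals inside the cell were read from a list of 77 adaptors, GTPase regulators and co-receptors, of which 76 were tested. Of these, 48 were lower and 28 higher in KO by sign, with a median log2 difference of -0.033 against 0.0016 over all tested genes, and 0 were called. The share lower over all tested genes was 49.2%. The unadjusted p was under 0.05 for 4 of the 76, against 3.37% of all genes tested. Fyn, a kinase downstream of netrin and semaphorin receptors, was at 81.1 ± 2.96 CPM in WT and 74.5 ± 3.62 CPM in KO (SD, n = 7), with a log2 difference of -0.12 ± 0.033 (SE, edgeR adjusted p = 0.943). Cntn2 and Tiam1 were also lower by sign and Arhgef11, which binds B-type plexins, was higher, with a log2 difference of 0.071 ± 0.027 (SE). With the astrocyte level, 27 of the 76 rose, against 10.9% of all genes tested, and 6 fell, against 7.09%. Those that rose included Nrcam (slope 0.96), a cell adhesion molecule in semaphorin receptor complexes, and Dpysl3 (slope 1.17), a collapsin response mediator, and those that fell included Fes (slope -0.083) and Rap1b (slope -0.086).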

How the data were processed

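The authors trimmed reads with Trimmomatic 0.36, aligned them to GRCm38 with STAR 2.5.2b and counted them per gene with featureCounts of Subread 1.5.2, as far as the submitters' processing notes name these tools. What the authors deposited is a table of whole-number read counts for Ensembl genes, without normalization. The annotation release and the strand setting are not given in the sources used here, nor is the batch of each library, which the study used as a covariate, so no fit holds a batch term. Each library is a separate pool of pups. Symbols, positions and exon lengths were taken from GENCODE M21 and promoter windows from RefSeq. Ntn3 had no matching identifier and was not analysed here.

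Low genes were removed by filterByExpr, with 10 as the minimum count and 15 as the minimum total. After TMM scaling, KO was compared with WT by quasi-likelihood in edgeR 4.0.16 (R 4.3.3), two-sided, with Benjamini-Hochberg adjustment over all 15700 genes. SE is the log2 difference divided by the root of F. Marker levels were the scaled log2 summed CPM of a list, fitted next to genotype. Single genes were compared on log2 CPM (prior count 1) by exact permutation over 3432 splits, for which the smallest possible p is 0.000583. DESeq2 1.42.0, other scaling factors and filters, the replicate block and leaving out libraries were alternatives. In simulated counts for the 15700 genes, sets of 50 were changed by 0.25, 0.5, 1 and 1.5 on the log2 scale. The genotype fit recovered 17, 27, 41 and 45 of them, with 8 false calls among 138 calls in all. The marker level fit recovered 29, 32, 49 and 49, with 5 false calls among 164. The changed genes were drawn at random from all tested genes, with independent noise. These counts therefore do not give the recovery for members under 1 RPKM.

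Named are Robo1, the member with the highest RPKM of each family, the 6 lower and 6 higher members with the smallest p, and up to 5 members per direction with the smallest p for each marker level. The members and lists were chosen with earlier results of these data known. The depth was 38875344 to 48070236 counts per library, so 1 CPM stands for between 39 and 48 counts in a library.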

Additional observations from a re-analysis of the deposited data

Results flagged for a closer look

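In a group of 7 libraries, the gap of the highest or lowest library to its nearest neighbour was compared with the range of the group on the log2 CPM scale. Of 134 groups (67 members in 2 genotypes), 4 held a library that stood apart, where chance gives about 1 in 20.

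Robo1 was at 0.543 CPM (22 counts) in KO 5, below the 1.63 to 2.43 CPM of the other KO libraries. KO 5 also had the lowest astrocyte marker level of all libraries, and the part of that level in the Robo1 value was not tested. Sema6d was at 11.1 CPM in KO 4, below the 13.0 to 14.4 CPM of the other KO libraries, and Plxna3 was at 8.55 CPM in KO 4, below the 10.7 to 12.3 CPM of the others. Unc5d was at 0.359 CPM (15 counts) in WT 4, above the 0.138 to 0.165 CPM of the other WT libraries.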

How the results depend on the processing

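No member was called between the genotypes under any of the 22 alternatives, and none of the 638 values of the 29 named members under them had an adjusted p under 0.05. DESeq2 called 15 genes in all, and 26 with the replicate block. The correlation of same-numbered libraries ranged from -0.196 to 0.743, with a mean of 0.103 against -0.016 for other pairs. Only replicate 5 correlated best with its own number. These correlations cannot settle whether same-numbered libraries shared a batch. With the replicate block edgeR still called 3 genes. At an unadjusted p under 0.05 in edgeR there were 921 genes with the block, against 529 in the main fit. With the block edgeR called 3094 genes and 31 members with the oligodendrocyte lineage level, and 2465 genes and 27 members with the vascular and fibroblast level.

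The count of members lower in KO was 22 with the astrocyte level as a covariate and 26 without WT 3 and WT 4. With the mean log2 CPM of the markers as the level, 183 genes and 0 members were called for neuron, 2402 and 31 for oligodendrocyte lineage, and 149 and 3 for vascular and fibroblast markers. Within KO libraries the astrocyte level called 545 genes and 12 members, and within WT libraries 1487 genes. Leaving out each library gave 1654 to 3084 genes for the astrocyte level, 274 to 1514 genes and 3 to 24 members for neuron, 489 to 1474 genes and 8 to 21 members for oligodendrocyte lineage, and 0 to 56 genes for vascular and fibroblast markers. The cause of these shifts was not tested.

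Of the named members, 14 changed sign under at least 1 alternative and 15 did not. With the astrocyte level as a covariate the log2 difference became 0.035 for Efna5, 0.068 for Efnb1, 0.24 for Efnb2, 0.028 for Epha2, 0.13 for Ephb1, 0.17 for Ephb2, 0.12 for Ephb3, 0.054 for Plxnb1, 0.27 for Robo2, 0.13 for Sema3e, 0.20 for Sema6a, -0.028 for Slit1 and 0.013 for Slit2. Without WT 3 and WT 4 it became 0.053 for Efnb1, 0.21 for Efnb2, 0.046 for Ephb1, 0.15 for Ephb2, 0.059 for Ephb3, 0.20 for Robo2, 0.0087 for Sema3e and 0.15 for Sema6a. Leaving out each library gave -0.065 to 0.028 for Efnb1, -0.061 to 0.030 for Nrp1, -0.40 to 0.042 for Sema3e and -0.065 to 0.085 for Slit1. Ranked by CPM without exon length, the highest member was the same in 8 of 9 families, and the highest Eph receptor became Ephb2 in place of Epha2. The SE was 0.33 for Efna3, with 11.8 counts per library, and 0.034 for Plxnb2, with 54340, but it did not follow depth alone, being 0.33 also for Plxnb1, with 352.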

Other observations

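Plxna4os1, an antisense gene that is no member, had 2938 counts in all, at 4.58 ± 0.395 CPM in WT and 5.12 ± 0.50 CPM in KO (SD, n = 7). Plxna4, on the other strand, was at 23.3 ± 2.87 CPM in WT and 22.0 ± 2.20 CPM in KO. The annotated exons of these genes do not overlap.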
